A study of Mus musculus with 6 samples.

Results

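The EGF receptor family and its ligands were followed here through 9 genes. They are 3 receptors (Egfr, Erbb2 and Erbb3) and 6 ligands (Areg, Ereg, Hbegf, Tgfa, Btc and Nrg1), taken by gene symbol from the 27366 features of the deposited table. All 9 were present and all 9 passed the filter on low values, so no member is missing from the counts below. RNA was sequenced at day 4 of culture. The cells were mouse satellite cells, which are muscle stem cells, in a medium of 20% serum with basic FGF. The labels put 3 libraries in the Islr knockout group (genotype ko) and 3 in the control group (genotype control), numbered 1 to 3 in each. The design text says that cells were sorted by flow cytometry for having or lacking Islr, which encodes a secreted leucine-rich repeat protein. The sources used here give neither age nor strain nor the way the knockout was made. No label ties a library to an animal or a culture of its own, and p-values therefore measure the spread between libraries, which may be technical.

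EGF family ligands are made as membrane-bound precursors that proteases of the Adam family cut free. They bind receptor tyrosine kinases of the ErbB family, which pair up, phosphorylate each other and switch on the Ras-ERK and PI3-kinase pathways. Erbb2 binds no ligand of its own and serves as the preferred partner, while Erbb3 binds neuregulins, has a weak kinase and signals through its partner. In muscle, neuregulin signalling is known from spindles, neuromuscular junctions and myoblast survival, and Egfr is known for a part in asymmetric division of satellite cells.

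The libraries held 16456917, 19874140 and 20124943 reads on genes in Islr knockout 1, 2 and 3, and 16835581, 16776805 and 20531276 in control 1, 2 and 3. Levels below are scaled reads, that is, reads divided by the authors' size factor for the library. Islr itself went against the labels of 2 libraries: its scaled reads were 256.7, 7.4 and 10.9 in Islr knockout 1, 2 and 3, against 181.1, 12.8 and 1579.3 in control 1, 2 and 3. In the library labelled Islr knockout 1 the gene was above 2 of the 3 control libraries, and in the library labelled control 2 it was at the level of Islr knockout 2 and 3. Islr shares exon positions with its neighbour Islr2, and the deleted part of the gene was not stated. Groups are therefore named by their labels, and members' values without 1 or the other of these libraries are given with the results. No fit left out both together. Of 12 satellite cell and myoblast markers, 11 had more than 10 reads in some library (Chodl did not), and Myod1, the myogenic transcription factor, stood at 18887.8 to 24544.4 in Islr knockout libraries and 24224.1 to 33818.2 in control libraries.

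The comparison asked whether receptor and ligand transcripts differ between knockout and control libraries. On balance the ligands and Egfr stood higher in the libraries labelled knockout, and Erbb2 and Erbb3 did not. No member passed the test: 0 of 9 had a limma adjusted p under 0.05, where the share over all 20344 genes tested was 0%. An unadjusted limma p under 0.05 was found for 2 members, Egfr and Areg, against 1.36% of all genes. The count of members past the adjusted threshold was also 0 in edgeR and DESeq2, with 2 members, Egfr and Ereg, at an unadjusted p under 0.05 in each, against 1.14% of all genes in edgeR and 1.17% in DESeq2. Fits that blocked on replicate number found 0 members past the adjusted threshold, against 0% of all genes in limma and edgeR and 0.0475% in DESeq2. The members at an unadjusted p under 0.05 with the block were 3 in limma (Egfr, Areg and Ereg; 4.59% of all genes), the same 3 in edgeR (4.28%) and 4 in DESeq2, with Hbegf added (2.61%). The log2 fold change was above 0 for 7 of 9 members, against 53% of all genes tested, and its median was 0.85, against 0.03 over all genes. In 3 members (Egfr, Areg and Btc) every knockout library lay above every control library, which held for 2.65% of all genes. No member lay below in that way, against 2.11% of all genes. Pairing libraries by number, 4 members (Egfr, Areg, Btc and Nrg1) were higher in the knockout library of all 3 pairs, against 12.2% of all genes. Erbb2 was lower in all 3, against 12.1%. The members were chosen with earlier results of these data known, so these counts describe the list and are no test of it. In RNA from whole cultures, fewer cells of a type and less RNA per cell cannot be told apart.

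**Figure D1:**
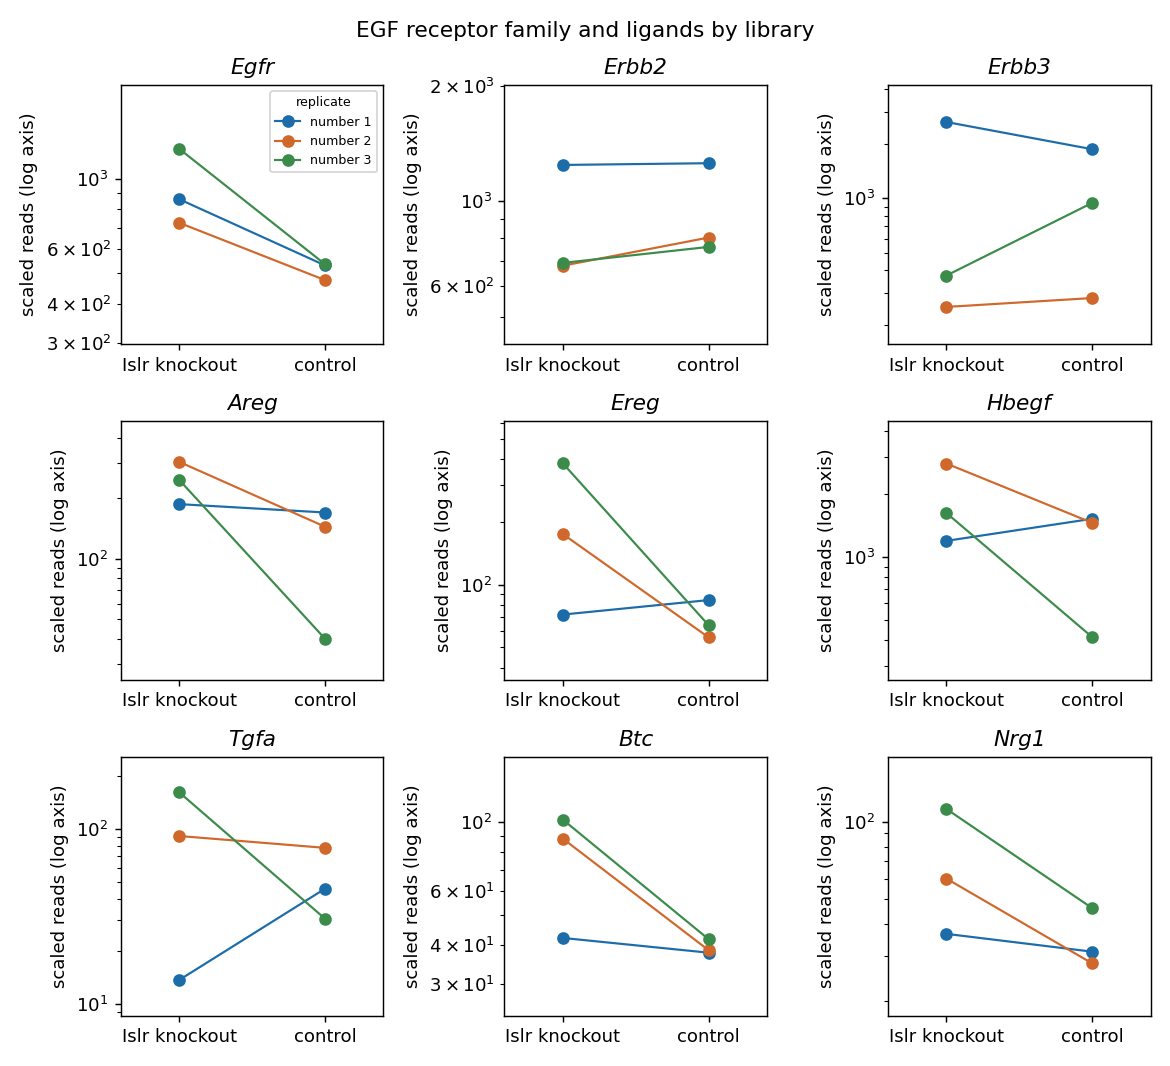
Scaled reads (log axis) of the 9 members in each library, with the Islr knockout libraries at the left of each panel and the control libraries at the right, and lines joining libraries of the same replicate number. Egfr, Areg and Btc are the panels in which all 3 knockout points lie above all 3 control points, while Erbb2 and Erbb3 are highest in number 1 of both groups.

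Egfr encodes the receptor for Areg, Tgfa, Egf and, together with other ErbB receptors, for Hbegf, Btc and Ereg. It was the receptor that separated the groups. It lies on chromosome 11 of GRCm38 from 16752203 to 16918158, on the plus strand. It stood at 862.5, 725.1 and 1249.6 scaled reads in Islr knockout 1, 2 and 3, against 529.9, 475.5 and 534.4 in control 1, 2 and 3. The 3 control libraries were close to each other, and the knockout libraries spread more widely above them. The group means were 946 ± 272 in knockout libraries and 513 ± 32.8 in control libraries (SD, n = 3 each), a ratio of 1.84. The limma log2 fold change was 0.84 ± 0.27 (SE), with a 95% confidence interval from 0.22 to 1.47 (adjusted p = 1.0). With the replicate number as a block the SE was 0.21 (limma adjusted p = 0.92). The difference had the same direction within each number, at 0.70, 0.61 and 1.22 on the log2 scale in numbers 1, 2 and 3. Over 22 alternative settings it ran from 0.62 to 1.02, with adjusted p from 0.301 to 1.0.

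Erbb2, on chromosome 11 from 98412470 to 98437716, is the co-receptor without a ligand, and it did not follow the groups. It stood at 1243.5, 679.0 and 690.5 scaled reads in Islr knockout 1, 2 and 3, against 1256.5, 804.1 and 760.2 in control 1, 2 and 3. Both libraries of number 1 were high, and the other 4 lay close together. In limma the log2 fold change was -0.13 ± 0.33 (SE), with an interval from -0.88 to 0.62 (adjusted p = 1.0). Its exons overlap Mien1 on the other strand, which stood at 41.5 to 87.9 in knockout libraries and 44.3 to 90.3 in control libraries. The sources used here state no strand setting for the counting, so reads in the overlap cannot be assigned with certainty.

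Erbb3, the neuregulin receptor, on chromosome 10 from 128567523 to 128589652, varied most among the receptors. In both groups it was highest in number 1 and lowest in number 2, and it did not separate the groups. It stood at 2629.7, 251.9 and 375.0 scaled reads in Islr knockout 1, 2 and 3, against 1862.0, 282.0 and 942.6 in control 1, 2 and 3. The highest library held 10.4 times the lowest. Limma gave a log2 fold change of -0.33 ± 1.10 (SE), with an interval from -3.03 to 2.37 (adjusted p = 1.0). Within numbers 1, 2 and 3 the difference was 0.50, -0.16 and -1.33. With the block, which takes out the differences between numbers, the SE was 0.32 and the interval ran from -1.07 to 0.41 (limma adjusted p = 0.927). The sign was not stable: edgeR and DESeq2 without the block gave 0.08, and limma gave 0.33 without Islr knockout 2 and -1.36 without Islr knockout 1.

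Myog, which marks entry into differentiation, was high in the same 3 libraries as Erbb3 but did not follow it within each number. Myog stood at 37227.7, 1998.3 and 5737.4 scaled reads in Islr knockout 1, 2 and 3, against 43369.9, 417.2 and 43260.6 in control 1, 2 and 3. Within numbers 1, 2 and 3 the log2 difference of Myog was -0.22, 2.26 and -2.91, against 0.50, -0.16 and -1.33 for Erbb3. The signs were the same only in number 3. The 3 libraries with the most Erbb3, namely Islr knockout 1, control 1 and control 3, were the 3 with the most Myog. Sox10, a Schwann cell and neural crest gene, went the other way: it stood at 31.9, 293.4 and 276.2 in Islr knockout 1, 2 and 3, against 51.1, 83.9 and 43.5 in control 1, 2 and 3, and was lowest where Erbb3 was high. The part of Myog level in the Erbb3 values was not tested.

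**Figure D2:**
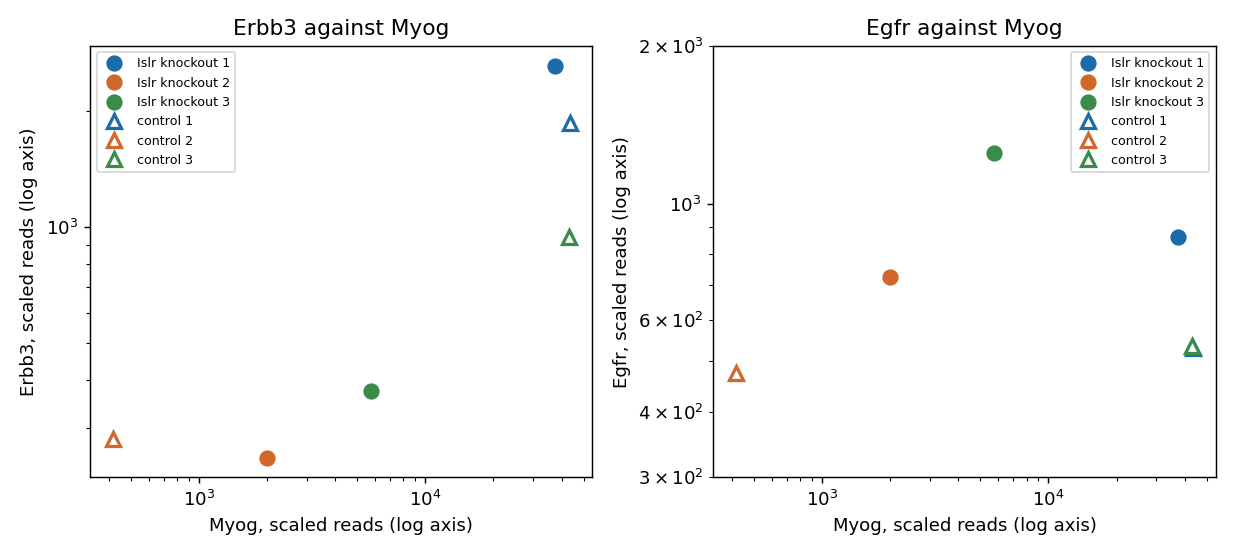
Erbb3 (left panel) and Egfr (right panel) against Myog, all in scaled reads on log axes, with filled circles for the 3 Islr knockout libraries, open triangles for the 3 control libraries, and 1 colour per replicate number. Erbb3 is at 942.6 or more in the 3 libraries with the most Myog and at 375.0 or less in the other 3; in the Egfr panel the knockout points, at 725.1 to 1249.6, lie above the control points at both ends of the Myog axis.

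Among the ligand genes Epgn, Ereg, Areg and Btc lie in a row on chromosome 5 of GRCm38 between 91027464 and 91402994. Areg, which encodes amphiregulin, a ligand of Egfr, lies from 91139599 to 91148432. It stood at 187.1, 303.5 and 246.9 scaled reads in Islr knockout 1, 2 and 3, against 170.0, 144.5 and 40.1 in control 1, 2 and 3. Every knockout library was above every control library, by a small margin in number 1, and control 3 was the low point. The group means were 246 ± 58.2 in knockout libraries and 118 ± 68.9 in control libraries (SD, n = 3 each). The limma log2 fold change was 1.27 ± 0.55 (SE), with an interval from 0.01 to 2.52 (adjusted p = 1.0). The difference was 0.14, 1.07 and 2.59 in numbers 1, 2 and 3. Without control 3 the log2 fold change was 0.62 ± 0.38.

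Ereg, which encodes epiregulin, a ligand of Egfr and Erbb4, lies beside Areg from 91074622 to 91093646. It stood at 71.9, 175.3 and 383.3 scaled reads in Islr knockout 1, 2 and 3, against 84.4, 55.9 and 63.9 in control 1, 2 and 3. Islr knockout 2 and 3 lay above all control libraries, and Islr knockout 1 lay within their range. In limma the log2 fold change was 1.32 ± 0.59 (SE), with an interval from -0.02 to 2.66 (adjusted p = 1.0). Without the library labelled Islr knockout 1 it was 1.93 ± 0.48 (limma adjusted p = 1.0). Without both libraries of number 1, and with the block, it was 2.10 ± 0.42 (limma adjusted p = 0.241). It was 0.74 without Islr knockout 3, and 0.70 with the block without number 3. The antisense gene Gm19610, which shares exon positions with Ereg on the other strand, stood at 10.3 to 16.7 in knockout libraries and 3.5 to 11.1 in control libraries.

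Btc, which encodes betacellulin, a ligand of Egfr and Erbb4, lies from 91357261 to 91402994 on the minus strand. It stood at 42.2, 88.6 and 102.1 scaled reads in Islr knockout 1, 2 and 3, against 37.8, 38.5 and 41.8 in control 1, 2 and 3. The control libraries were nearly level, and Islr knockout 1 lay just above them. The group means were 77.6 ± 31.4 in knockout libraries and 39.3 ± 2.13 in control libraries (SD, n = 3 each). Limma gave a log2 fold change of 0.87 ± 0.49 (SE), with an interval from -0.23 to 1.97 (adjusted p = 1.0).

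Epgn, the ligand gene epigen at the other end of this row of genes, did not move with its neighbours. It stood at 22.8, 3.7 and 5.9 scaled reads in Islr knockout 1, 2 and 3, against 15.6, 5.8 and 13.6 in control 1, 2 and 3. Its highest values were in number 1, where those of Areg, Ereg and Btc showed the smallest or no difference between groups. The limma log2 fold change was -0.37 ± 0.79 (SE; adjusted p = 1.0).

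The sequences before the start sites of Egfr, Areg and Btc are shown because these were the members whose groups did not overlap. RefSeq promoter entries on GRCm38.p6 matched 5 of the 9 members. Each line gives the 250 bases before the annotated start, 5′ to 3′ on the gene's strand, at chr11:16751953-16752202 (plus strand) for Egfr, chr5:91139349-91139598 (plus strand) for Areg and chr5:91402995-91403244 (minus strand) for Btc. Capitals mark matches, on either strand, to the cyclic AMP response element TGACGTCA, the AP-1 site TGANTCA, the TATA box TATAAA, the GC box GGGCGG or the E-box CAGCTG.
Egfr: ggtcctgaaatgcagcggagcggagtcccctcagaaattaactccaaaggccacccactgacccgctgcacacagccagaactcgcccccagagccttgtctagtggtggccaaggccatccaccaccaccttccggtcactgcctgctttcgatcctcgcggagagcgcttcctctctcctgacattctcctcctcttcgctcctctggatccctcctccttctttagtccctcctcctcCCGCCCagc
Areg: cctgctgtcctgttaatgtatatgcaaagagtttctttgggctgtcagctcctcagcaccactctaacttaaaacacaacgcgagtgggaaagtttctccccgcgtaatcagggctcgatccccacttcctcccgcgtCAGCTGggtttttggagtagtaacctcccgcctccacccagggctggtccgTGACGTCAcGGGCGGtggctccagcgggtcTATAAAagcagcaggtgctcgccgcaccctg
Btc: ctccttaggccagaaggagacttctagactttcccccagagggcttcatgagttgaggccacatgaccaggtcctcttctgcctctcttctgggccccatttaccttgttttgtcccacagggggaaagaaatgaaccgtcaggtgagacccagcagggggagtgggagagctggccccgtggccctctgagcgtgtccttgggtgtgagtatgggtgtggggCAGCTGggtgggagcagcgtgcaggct
The Areg window held a cyclic AMP response element whose bases are 61 to 54 before the start, a GC box 52 to 47 before it, a TATA box 31 to 26 before it and an E-box 112 to 107 before it. The Egfr window held a GC box on the minus strand, 9 to 4 bases before the start. The Btc window held an E-box 27 to 22 bases before the start. Over 32851 promoter windows of the same length, 1.55% held the cyclic AMP response element, 6.75% the AP-1 site, 12.4% the TATA box, 32.7% the GC box and 13% the E-box. The motifs did not overlap each other in these windows, and a match is a description of the letters and not a site shown to be bound.

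Hbegf encodes heparin-binding EGF-like growth factor, which binds Egfr and Erbb4, and lies on chromosome 18 from 36504927 to 36515805. It was the most abundant ligand transcript. It stood at 1193.3, 2794.5 and 1622.9 scaled reads in Islr knockout 1, 2 and 3, against 1521.0, 1455.5 and 414.2 in control 1, 2 and 3. The groups overlapped, with Islr knockout 1 under control 1 and 2, and control 3 again the low library. In limma the log2 fold change was 0.85 ± 0.54 (SE), with an interval from -0.39 to 2.10 (adjusted p = 1.0). Within numbers 1, 2 and 3 the difference was -0.35, 0.94 and 1.97. The log2 fold change was 0.24 without control 3 and 0.52 without Islr knockout 2.

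Tgfa, which encodes transforming growth factor alpha, a ligand of Egfr, lies on chromosome 6 from 86195223 to 86275719. It stood at 13.7, 91.3 and 162.4 scaled reads in Islr knockout 1, 2 and 3, against 45.6, 78.1 and 30.7 in control 1, 2 and 3. Islr knockout 1, with 12 reads, was the lowest library of all, and Islr knockout 3 the highest. Limma gave a log2 fold change of 0.31 ± 0.86 (SE), with an interval from -1.65 to 2.27 (adjusted p = 1.0). It came to 1.33 ± 0.56 without the library labelled Islr knockout 1, and turned to -0.41 ± 0.85 without that labelled Islr knockout 3 (limma adjusted p = 1.0 for each).

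Nrg1, the neuregulin gene whose products bind Erbb3 and Erbb4, lies on chromosome 8 from 31814551 to 32884254 in the deposited table. It stood at 36.5, 60.0 and 112.2 scaled reads in Islr knockout 1, 2 and 3, against 31.1, 28.0 and 46.0 in control 1, 2 and 3. The knockout library was higher in each number, but Islr knockout 1 lay within the range of the control libraries. The limma log2 fold change was 0.85 ± 0.54 (SE), with an interval from -0.38 to 2.09 (adjusted p = 1.0). It was 0.44 without Islr knockout 3. Nrg1 makes many isoforms from separate start sites, which whole-gene values do not tell apart.

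**Figure D3:**
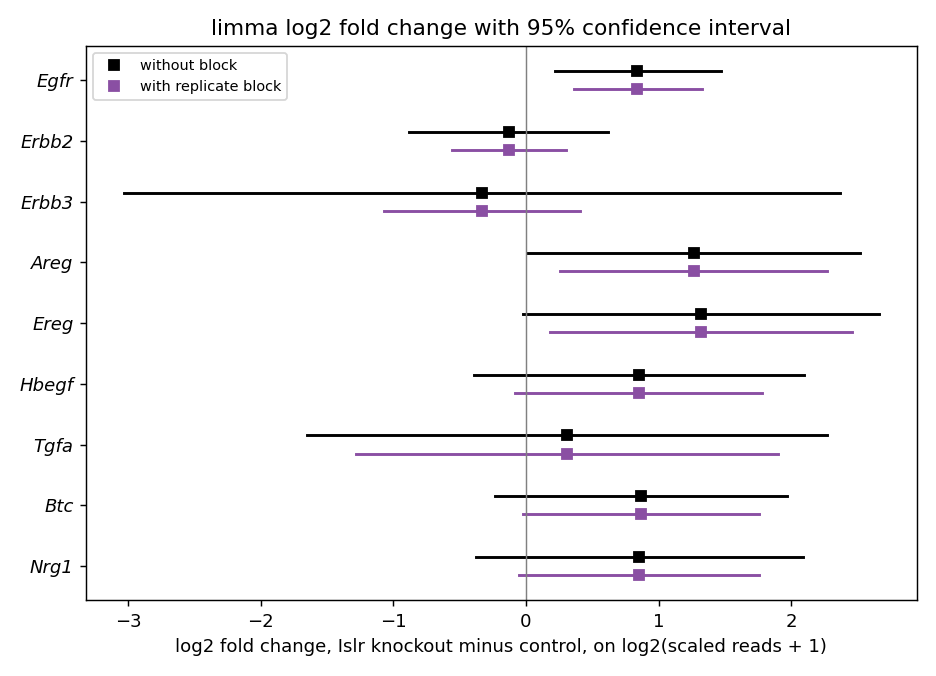
Limma log2 fold change of each member (square) with its 95% confidence interval (line), Islr knockout minus control on the log2(scaled reads + 1) scale, without a block in black and with the replicate number as a block in purple. The interval without the block lies above 0 for Egfr (0.22 to 1.47) and Areg (0.01 to 2.52), and with the block also for Ereg (0.18 to 2.46); these intervals are not adjusted for the number of genes tested.

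The ligands stood higher in the knockout library of numbers 2 and 3, and on balance not in that of number 1. The median log2 difference over the 6 ligands was -0.05, 1.07 and 2.17 in numbers 1, 2 and 3, against 0.02, 0.00 and 0.01 over all genes tested. In number 1 the differences ran from -1.66 for Tgfa to 0.22 for Nrg1. In number 3 they ran from 1.27 for Btc and Nrg1 to 2.59 for Areg. With the block, the median over the 9 members was 1.23 without number 1, 0.75 without number 2 and 0.60 without number 3. Without number 1 the log2 fold changes were 1.83 for Areg, 1.45 for Hbegf, 1.30 for Tgfa, 1.23 for Btc, 1.17 for Nrg1, 0.92 for Egfr, -0.19 for Erbb2 and -0.75 for Erbb3. Without number 3 they were 0.60 for Areg, 0.30 for Hbegf, -0.72 for Tgfa, 0.67 for Btc, 0.65 for Nrg1 and Egfr, -0.13 for Erbb2 and 0.17 for Erbb3. Leaving out only the library labelled control 2, with no block, gave a median of 0.79, with 0.79 for Egfr, 1.53 for Areg, 1.19 for Ereg, 1.14 for Hbegf, 0.66 for Tgfa, 0.85 for Btc, 0.71 for Nrg1, -0.23 for Erbb2 and -1.07 for Erbb3. Leaving out only that labelled Islr knockout 1 gave a median of 1.24, with 0.89 for Egfr, 1.45 for Areg, 1.13 for Hbegf, 1.25 for Btc, 1.24 for Nrg1 and -0.42 for Erbb2. Egfr was higher by 0.61 or more in the knockout library of each number.

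Levels were compared between genes on the authors' FPKM scale, which divides by gene length. Of the ligands Hbegf led in all 6 libraries, at 36.0 ± 16 FPKM in knockout libraries and 20.7 ± 11 FPKM in control libraries (SD, n = 3 each). It made up 59.8% to 73.7% of the summed FPKM of the 6 ligands in knockout libraries and 65.9% to 75.4% in control libraries. Areg came next in all 6 libraries, at 11.3 ± 2.8 FPKM in knockout libraries and 5.15 ± 2.9 FPKM in control libraries. Ereg averaged 2.92 ± 2.4 FPKM in knockout libraries and 0.891 ± 0.20 FPKM in control libraries. Tgfa averaged 1.13 ± 0.98 and Btc 1.09 ± 0.48 FPKM in knockout libraries, against 0.602 ± 0.25 and 0.528 ± 0.057 FPKM in control libraries, and these neighbours did not differ beyond their spread. Nrg1 was the lowest by mean, at 0.731 ± 0.45 FPKM in knockout libraries and 0.352 ± 0.12 FPKM in control libraries, and lay under Btc in all 6 libraries. The summed ligand level was 32.2, 71.6 and 55.8 FPKM in Islr knockout 1, 2 and 3, against 38.1, 34.2 and 12.4 in control 1, 2 and 3.

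Among receptors Erbb2 was above Egfr in all 6 libraries on the FPKM scale. It averaged 9.59 ± 3.2 FPKM in knockout libraries and 10.1 ± 2.9 FPKM in control libraries. This order rests on the lengths behind the FPKM, 10208 bases for Egfr and 5012 for Erbb2. In scaled reads Egfr was above Erbb2 in Islr knockout 2 (725.1 against 679.0) and 3 (1249.6 against 690.5), and below it in the other libraries. Egfr averaged 5.21 ± 1.8 FPKM in knockout libraries and 2.72 ± 0.31 FPKM in control libraries. The ratio of Erbb2 to Egfr was 2.94, 1.91 and 1.13 in Islr knockout 1, 2 and 3, against 4.83, 3.44 and 2.90 in control 1, 2 and 3, and was lower in the knockout library of each number. Erbb3 had no fixed place among them: the ratio of Erbb3 to Egfr was 5.17, 0.589 and 0.509 in Islr knockout 1, 2 and 3, against 5.96, 1.01 and 2.99 in control 1, 2 and 3.

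**Figure D4:**
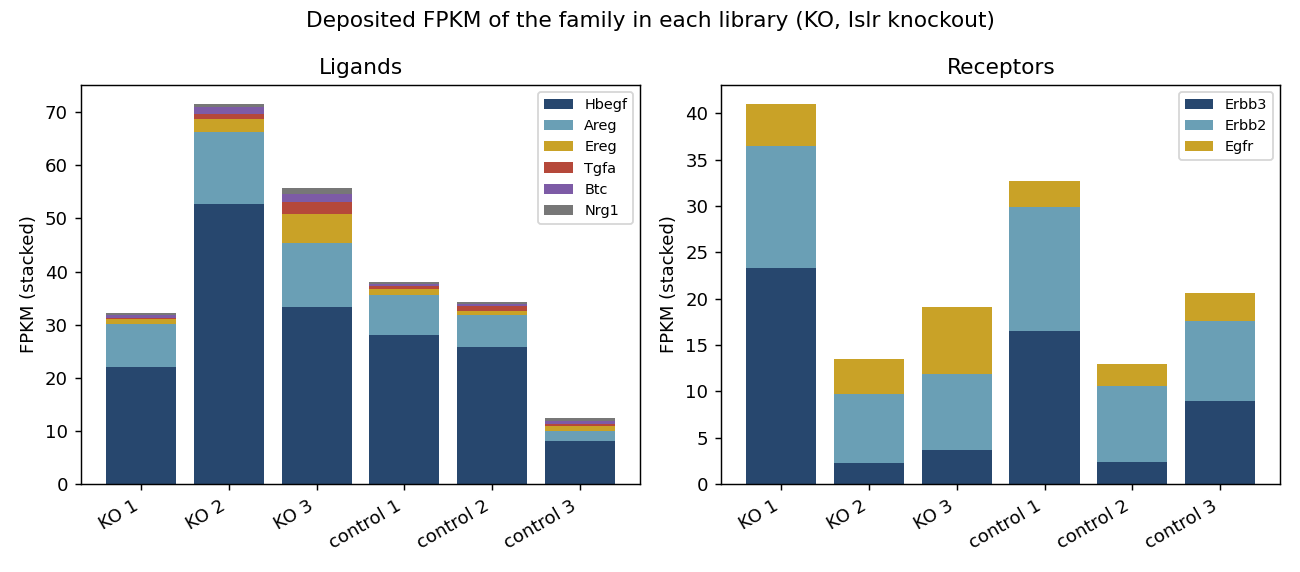
Deposited FPKM of the 6 ligands (left panel, stacked) and the 3 receptors (right panel, stacked) in each library, Islr knockout libraries at the left of each panel and control libraries at the right. Hbegf makes up most of each ligand bar, the ligand bars are highest in Islr knockout 2 (71.6) and 3 (55.8) and lowest in control 3 (12.4), and the Erbb3 segment is largest in number 1 of both groups.

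The other genes of the family had few reads, at most 39 in any library, which is in the range of the lowest members. Erbb4, the remaining receptor, had 0, 1 and 10 reads in Islr knockout 1, 2 and 3, and 0 in all 3 control libraries. Nrg2 stood at 5.7, 13.8 and 5.0 scaled reads in Islr knockout 1, 2 and 3, against 1.1, 2.3 and 3.4 in control 1, 2 and 3, with a limma log2 fold change of 1.42 ± 0.71 (SE; adjusted p = 1.0). Nrg4 stood at 24.0, 9.2 and 9.2, against 12.2, 5.8 and 3.4. Egf stood at 44.5, 15.7 and 20.1, against 31.1, 10.5 and 22.2. Like Erbb3, Nrg4, Egf and Epgn were highest in number 1 of both groups, and counting error at these levels is large. Nrg3 was not among the features kept from the deposited table, so it has no values here.

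Genes that release the ligands were counted next. Of 13 proteases and their partners, 0 passed the limma threshold, 11 had a log2 fold change above 0, and the median was 0.39. Over all genes tested 53% were above 0 and the median was 0.03, which is the background for the lists below. In 1 of the 13 every knockout library lay above every control library, against 2.65% of all genes. Rhbdf2, which encodes a rhomboid-like protein that carries Adam17 to the cell surface, stood at 277.2, 325.7 and 558.3 scaled reads in Islr knockout 1, 2 and 3, against 236.6, 221.4 and 288.1 in control 1, 2 and 3. Adam9, a membrane metalloprotease, stood at 2691.3, 1990.0 and 3424.0, against 1973.1, 1763.2 and 2012.3. Bace1, a protease that cuts neuregulin, stood at 660.6, 561.9 and 520.6, against 430.0, 385.7 and 479.0, with the groups apart. The limma adjusted p was 1.0 for each of the 3. Without Islr knockout 3 the log2 fold changes of Adam9 and Rhbdf2 were 0.27 and 0.28, against 0.46 and 0.58 with all libraries.

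Adaptors and kinases next to the receptors lay nearer to 0. Of 20 genes, 0 passed, 15 were above 0, and the median log2 fold change was 0.13. Shc1, the adaptor that links receptors to Ras, stood at 2088.9, 2956.0 and 4635.1 scaled reads in Islr knockout 1, 2 and 3, against 1760.9, 2450.7 and 2431.6 in control 1, 2 and 3. The PI3-kinase subunit genes Pik3r1 and Pik3cb had log2 fold changes of 0.34 ± 0.26 and 0.51 ± 0.41 (SE). Pik3cb was at 0.05 without control 3 and 0.85 without control 2, Pik3r1 at 0.20 and Shc1 at 0.18 without Islr knockout 3. Genes that restrain or turn over the receptors had 15 of 16 above 0, with 0 passing and a median of 0.16. In 1 of the 16 every knockout library lay above every control library, against 2.65% of all genes. Lrig1, a membrane protein that promotes receptor degradation, stood at 1438.6, 1350.7 and 2184.5, against 1031.0, 1205.0 and 1335.5, with the groups apart. Cblb, a ubiquitin ligase, and Sh3kbp1, its endocytic partner, had log2 fold changes of 0.49 ± 0.29 and 0.65 ± 0.35. Cblb was at 0.22 without control 3, and Sh3kbp1 and Lrig1 at 0.41 and 0.24 without Islr knockout 3. For each of these genes limma gave an adjusted p of 1.0.

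Transcripts known to follow receptor activity were above 0 in 22 of 24 cases, against 53% of all genes tested. With 0 passing, their median log2 fold change was 0.41, against 0.03 over all genes. Their median difference was 0.07, 0.27 and 1.14 in numbers 1, 2 and 3. These genes also respond to many other signals. Dusp6, a phosphatase that acts on ERK, stood at 1140.9, 1560.1 and 2308.4 scaled reads in Islr knockout 1, 2 and 3, against 1051.0, 1229.4 and 692.1 in control 1, 2 and 3. Ptgs2, which encodes a prostaglandin synthase, stood at 932.1, 3662.7 and 8046.6, against 1132.1, 940.4 and 1030.4. Lif, a cytokine gene, had a log2 fold change of 2.07 ± 0.85 (SE; limma adjusted p = 1.0) and passed in 1 setting, at 2.13 in DESeq2 with the replicate block (adjusted p = 0.0248). Its limma log2 fold change was 1.23 without control 2. For Dusp6 and Ptgs2 the limma adjusted p was 1.0, and without Islr knockout 3 their log2 fold changes were 0.47 and 0.84, against 0.73 and 1.55 with all libraries. As with the ligands, Ptgs2 was high in Islr knockout 2 and 3 and not in Islr knockout 1.

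Of 12 co-receptors and ligand partners, 9 were above 0, 0 passed, and the median log2 fold change was 0.19. In 1 of the 12 every knockout library lay above every control library, against 2.65% of all genes. Nrp1, a co-receptor for several growth factors, stood at 1100.9, 1126.5 and 1277.2 scaled reads in Islr knockout 1, 2 and 3, against 705.5, 899.6 and 437.2 in control 1, 2 and 3, with the groups apart. Cd44, a hyaluronan receptor that presents Hbegf, had a log2 fold change of 0.44 ± 0.36, and the basement membrane proteoglycan gene Hspg2 0.46 ± 0.41 (SE). Cd44 was at 0.06 and Nrp1 at 0.55 without control 3, and Hspg2 at 0.07 without Islr knockout 1 and 0.15 without control 3. Of 10 neuregulin-linked postsynaptic genes, 4 were above 0, 0 passed, and the median was -0.12. Rapsn, which clusters acetylcholine receptors, stood at 1755.8, 1319.3 and 1730.8, against 2497.5, 1499.8 and 3176.5, and was lower in the knockout library of each number. Utrn had a log2 fold change of 0.54 ± 0.48 and of 0.03 without Islr knockout 1, and Chrne had at most 3.4 scaled reads in knockout libraries and 1.7 in control libraries. For all of these genes limma gave an adjusted p of 1.0.

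Among the knockout libraries, markers of several other cell types were, like the ligands, lowest in Islr knockout 1. Among the control libraries the marker lists differed in their order. The summed FPKM of 10 endothelial markers was 5.22, 28.1 and 25.1 in Islr knockout 1, 2 and 3, against 5.32, 10.8 and 9.33 in control 1, 2 and 3. That of 12 macrophage and immune markers was 3.54, 19.8 and 40.0, against 7.37, 5.88 and 13.2, and that of 12 Schwann cell markers was 18.8, 47.2 and 54.6, against 20.9, 14.8 and 37.8. That of 10 epithelial markers was 10.2, 86.2 and 78.5, against 23.6, 65.1 and 20.7, and that of 12 fibroblast markers was 125, 201 and 302, against 146, 72.7 and 276. For each of these lists Islr knockout 2 and 3 were above Islr knockout 1, as for Ereg, Areg, Hbegf, Tgfa, Btc and Nrg1. In the control group the ligand sum was lowest in control 3, where the immune, Schwann cell and fibroblast sums were highest and the epithelial sum was lowest. In scaled reads Cldn4 was the highest epithelial marker in each library, at 288.6, 2451.3 and 1992.0, against 731.0, 2213.0 and 496.0. In control 2 the next was Krt18, at 47.8. The log2 fold change was above 0 for 10 of 10 endothelial, 7 of 10 tested macrophage, 9 of 12 Schwann cell, 9 of 10 epithelial and 11 of 12 fibroblast markers, and 0 passed the limma threshold. The share above 0 over all genes tested was 53%. No listed marker was at 0 in all 6 libraries. Those with at most 10 reads in any library were Fcgr1, Cx3cr1 and Cd3e among immune, Krt5, Grhl2 and Esrp1 among epithelial, Dpt, Pi16 and Dpp4 among fibroblast and Gfap among Schwann cell markers. For 9 smooth muscle and pericyte markers the sum was 1690, 742 and 832, against 2030, 497 and 1750, with 5 of 9 above 0. For 12 satellite cell and myoblast markers it was 3780, 1360 and 1650, against 4170, 1490 and 3880, with 3 of 12 above 0. Des is on both of these lists, at 70905.0, 17685.9 and 23035.9 scaled reads, against 76325.4, 14090.1 and 39595.7. It was the highest smooth muscle and pericyte marker in each library by scaled reads. Within the satellite cell and myoblast list, Pax7, Myf5 and Myod1 were highest in control 2, at 2729.2, 2253.8 and 33818.2. Myog was lowest there, at 417.2, so these sums follow their highest genes. The part of these cells in the ligand values was not tested.

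The genes whose levels over the 6 libraries were most like those of the receptors were found among 11510 genes with a mean of at least 50 scaled reads. For Egfr they were Tmc7 and Col8a1 (Pearson r = 0.981 for each), for Erbb2 Inppl1 (r = 0.997) and Rrnad1 (r = 0.996), and for Erbb3 Reep1 (r = 0.998) and Gm43682 (r = 0.997). Libraries of a number share what the number marks, and with 6 libraries many genes fit closely: 14 genes had r above 0.95 with Egfr, 100 with Erbb2 and 199 with Erbb3. Reep1 stood at 1924.6, 208.5 and 337.3 scaled reads in Islr knockout 1, 2 and 3, against 1343.2, 275.0 and 754.3 in control 1, 2 and 3.

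In the authors' deposited table of their own comparison, positive values mean higher in knockout libraries. For Ereg the authors' deposited table gives a log2 fold change of 1.63 (p = 0.00685), the smallest p among the members, and for Egfr 0.88 (p = 0.0127). For Btc, Areg and Nrg1 the authors' deposited table gives 0.98, 1.06 and 0.99, and for Erbb3 and Erbb2 0.08 and -0.11. The adjusted p of all 9 members in the authors' deposited table was 1.0 after rounding. For the members, these log2 fold changes and p-values were, after rounding, the same as in DESeq2 on the recovered reads without a block. They are therefore not a separate source. A deposited table of gene ontology terms held 9 terms on epidermal growth factor or ERBB among its 1475 terms. In the authors' deposited table of terms, the epidermal growth factor receptor signaling pathway had 4 listed genes, where 1.18 were expected, with p = 0.03093 and an adjusted p of 0.190. The lowest adjusted p of the 9 terms in the authors' deposited table was 0.172. Of the 4 genes of the pathway term, 2 were members, Egfr and Ereg, and the other 2 were Mmp9 and Itga1. No other gene of the EGF family was listed under any term. In the authors' deposited comparison 0 of 27283 genes had an adjusted p under 0.05, so the listed genes had not passed that threshold there. The terms rest on the same 6 libraries and are not a separate source either.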

How the data were processed

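RNA sequencing of 6 libraries of cultured mouse satellite cells was analysed. The authors' main table gives scaled reads per gene on a signal scale, that is, read counts of a gene over the library's size factor, together with FPKM values, the gene length and, on a log2 scale with p-values, their own comparison, per the file headers. DESeq2 1.16.1, edgeR 3.18.1, HTSeq, HISAT2 2.0.5 and Trimmomatic are listed in the submitters' processing notes without their roles, and the sources used here state neither strand setting nor build. A deposited raw count table covers 1031 features and no member. The column used for control 1 has 2 digits exchanged against its label, and 6 FPKM columns of the partial table were not used. After 36 damaged lines were dropped, 27366 features remained. Of 27093 Ensembl genes 26923 had the same coordinates in GENCODE M21, so positions are given on GRCm38. The length behind the deposited FPKM, worked back from the reads, was shorter than the listed length for Egfr, Erbb2, Hbegf, Tgfa, Btc and Nrg1 and equal to it for Erbb3, Areg and Ereg.

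Reads were recovered from the lowest values; 100.0% of values were whole within 0.01 reads, and they equalled the deposited counts for each of the 480 genes shared with the raw table. As the values are scaled and not counts, the test was limma 3.58.1 (trend, robust, two-sided, no block) on log2(scaled reads + 1), which understates changes of low genes, for the 20344 genes whose mean was 1 or more; the threshold was a Benjamini-Hochberg adjusted p of 0.05. On the recovered reads, edgeR 4.0.16 called 0 of 14214 genes and DESeq2 1.42.0 called 0. Fits were tested on simulated data with large changes and no differences between replicate numbers. Their power at the spread of these libraries was not tested. Same-numbered libraries deviated together from their group means (correlations of 0.689, 0.633 and 0.625 over 14280 genes), so the numbers were taken as pairs in the alternatives with a block; the labels do not say what the numbers mark.

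The 9 members and all gene lists were chosen with earlier results of these data known. Named genes are the members, Islr, the other EGF family genes, the 3 genes of each pathway list with the smallest limma p, and the 2 genes most alike to each receptor; Myog, Myod1, Sox10, Mien1 and Gm19610 were added after their values were seen. Alternatives covered scaling, pseudocounts, filters, tools, the block and leaving out libraries.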

Additional observations from a re-analysis of the deposited data

How the results depend on the processing

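No member passed the adjusted threshold under any of 22 alternatives. The count over all genes was 0 in 21 of them and 13 in DESeq2 with replicate block. The median log2 fold change of the members ran from 0.60 to 1.24 over all alternatives; leaving out 1 library gave 0.62 to 1.24 and leaving out both libraries of a number gave 0.60 to 1.23. Egfr, Areg, Ereg, Hbegf, Btc and Nrg1 kept a positive log2 fold change in all 22. The sign turned for Erbb3 in edgeR and DESeq2 on recovered reads (0.08 in both), without Islr knockout 2 (0.33), Islr knockout 3 (0.04) or control 1 (0.29), and with replicate block without number 3 (0.17). It turned for Erbb2 without Islr knockout 2 (0.02), Islr knockout 3 (0.0049) or control 1 (0.10). It turned for Tgfa without Islr knockout 3 (-0.41) or control 3 (-0.0038) and with replicate block without number 3 (-0.72), for Egf without Islr knockout 1 (-0.12) or control 2 (-0.11), and for Epgn without Islr knockout 2 (0.11). Leaving out 1 library at a time gave -0.42 to 0.10 for Erbb2, -1.36 to 0.33 for Erbb3, -0.41 to 1.33 for Tgfa, -0.12 to 0.63 for Egf, -1.06 to 0.11 for Epgn, 0.62 to 1.02 for Egfr, 0.62 to 1.65 for Areg, 0.74 to 1.93 for Ereg, 0.24 to 1.18 for Hbegf, 0.63 to 1.25 for Btc and 0.44 to 1.24 for Nrg1. The cause was not tested. Over the 33 named genes refitted under the alternatives, the replicate block changed 1 call, that of Lif in DESeq2; the genes alike to the receptors and those added after their values were seen were not followed there. Its value for the members was 0 calls in limma, with 933 genes at an unadjusted p under 0.05, against 276 without it. That number, without the block, was 91 without Islr knockout 3, 837 without Islr knockout 1 and 520 without control 2. Tgfa, Btc and Nrg1 rest on 12 to 194 reads per library, which limits their precision.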
